A study of Homo sapiens with 12 samples.

Results

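The low-density lipoprotein (LDL) receptor family was examined in K562 cells, a human chronic myeloid leukemia line, through 8 of its genes, LRP1, VLDLR, LRP3, LRP4, LRP8, LRP10, LRP11 and LRP12. They were taken by name from the 27348 genes of the RNA-seq table, together with the peaks of 3 ChIP-seq lists at each gene. The family was chosen by the place of LRP1 in the authors' comparison of the PHF19-depleted cells with shCT, and the fold changes and p-values of that comparison are not reported here. All 8 genes were found in the table and were placed on the genome. K562 cells were infected with lentiviral hairpins against the long isoform of PHF19 (sh#1 or sh#2) or with the empty vector (shCT), and all were selected with puromycin. RNA-seq was performed in 6 libraries, and the table used here gives 1 mean over all of them, so neither the depletion of PHF19 nor a change of any gene's RNA upon depletion could be measured from it. ChIP-seq comprised 6 libraries, 1 for each antibody and condition, and the lists analysed were those of PHF19 in shCT cells, MTF2 in sh#2 cells and MTF2 in shCT cells. Each condition thus rests on a single library, no peak could be checked in a second one, and no test was made between conditions.

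Receptors of this family are membrane proteins whose extracellular part carries cysteine-rich LDL receptor class A repeats, which bind ligands in a calcium-dependent way. Several of them take up lipoproteins, proteases and their inhibitors by endocytosis, and others act mainly in signaling. LRP1 is a large endocytic and signaling receptor. VLDLR and LRP8 (apolipoprotein E receptor 2) are the receptors of reelin, and LRP4 is the receptor of agrin at the neuromuscular junction. LRP3, LRP10 and LRP12 form a more distant branch that combines class A repeats with CUB domains, and LRP11 is a further distant member. PHF19 and MTF2 are Polycomb-like proteins, accessory factors of Polycomb repressive complex 2 (PRC2), which methylates histone H3 at lysine 27. Both bind DNA that contains unmethylated CpG dinucleotides.

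Windows at members with and without peaks are shown here on GRCh37, 5′ to 3′ on the strand of the gene, with each CpG in capitals. A center is the midpoint of the stretch shared by the lists and not a summit of signal. The center of the LRP1 stretch under an MTF2 peak in both sh#2 and shCT cells (chr12:57590185-57590484, plus strand, intronic) held 1 CpG in 300 bases, whereas the center of the LRP4 stretch under a peak of all 3 lists (chr11:46939032-46939331, minus strand, intronic) held 15. These windows are small parts of the peaks, and over the whole shared stretches the contrast was smaller, with 114 CpGs in 3490 bp at LRP1 and 185 in 2714 bp at LRP4.
LRP1 peak center: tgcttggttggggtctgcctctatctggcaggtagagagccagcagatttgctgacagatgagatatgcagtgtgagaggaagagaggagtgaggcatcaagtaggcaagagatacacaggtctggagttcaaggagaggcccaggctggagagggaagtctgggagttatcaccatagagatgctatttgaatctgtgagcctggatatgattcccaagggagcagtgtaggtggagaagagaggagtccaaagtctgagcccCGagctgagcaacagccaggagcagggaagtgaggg
LRP4 peak center: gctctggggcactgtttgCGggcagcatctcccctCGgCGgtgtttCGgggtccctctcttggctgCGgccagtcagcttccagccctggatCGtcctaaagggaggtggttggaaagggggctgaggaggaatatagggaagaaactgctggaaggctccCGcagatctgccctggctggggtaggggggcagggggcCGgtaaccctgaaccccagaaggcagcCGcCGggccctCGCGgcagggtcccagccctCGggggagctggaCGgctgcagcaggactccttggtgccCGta

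The promoters of LRP1 (chr12:57522016-57522315, plus strand) and VLDLR (chr9:2621537-2621836, plus strand) are shown as CpG-containing starts that no peak covered, and those of LRP3 (chr19:33684986-33685285, plus strand) and LRP11 (chr6:150185446-150185745, minus strand) as starts under an MTF2 peak in sh#2 cells. Each is the RefSeq window from 250 bases before the start to 50 after it, matched to GRCh37 as a single exact hit.
LRP1 promoter: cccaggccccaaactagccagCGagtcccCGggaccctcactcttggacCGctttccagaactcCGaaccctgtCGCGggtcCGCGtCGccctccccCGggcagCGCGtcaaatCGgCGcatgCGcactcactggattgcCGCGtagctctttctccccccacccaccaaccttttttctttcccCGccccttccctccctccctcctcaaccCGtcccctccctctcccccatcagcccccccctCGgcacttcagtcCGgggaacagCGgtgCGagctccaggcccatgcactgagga
VLDLR promoter: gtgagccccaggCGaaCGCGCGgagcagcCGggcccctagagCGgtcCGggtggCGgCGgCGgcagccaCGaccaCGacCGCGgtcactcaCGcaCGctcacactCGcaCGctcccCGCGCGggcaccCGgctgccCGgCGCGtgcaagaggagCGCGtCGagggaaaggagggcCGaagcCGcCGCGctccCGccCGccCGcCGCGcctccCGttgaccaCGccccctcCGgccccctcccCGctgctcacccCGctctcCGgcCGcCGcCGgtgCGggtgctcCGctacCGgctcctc
LRP3 promoter: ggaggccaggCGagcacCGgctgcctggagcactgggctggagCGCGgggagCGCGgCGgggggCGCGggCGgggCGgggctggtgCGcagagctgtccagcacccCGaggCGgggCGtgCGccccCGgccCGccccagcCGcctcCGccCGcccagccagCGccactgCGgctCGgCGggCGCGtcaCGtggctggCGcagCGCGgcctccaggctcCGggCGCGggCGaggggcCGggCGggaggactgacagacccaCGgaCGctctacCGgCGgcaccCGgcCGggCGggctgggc
LRP11 promoter: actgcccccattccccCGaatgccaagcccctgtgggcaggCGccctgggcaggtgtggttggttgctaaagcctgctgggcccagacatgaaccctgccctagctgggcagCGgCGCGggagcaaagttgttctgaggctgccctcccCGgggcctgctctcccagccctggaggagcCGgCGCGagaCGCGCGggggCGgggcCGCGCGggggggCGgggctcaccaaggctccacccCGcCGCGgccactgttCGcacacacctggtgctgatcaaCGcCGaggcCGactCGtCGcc

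The members ranged from genes with clear RNA to genes with almost none. LRP10, which cycles between the trans-Golgi network and endosomes, had the highest level per kb of exons, 231, from an authors' mean normalized count of 1646 over all libraries. LRP12 had a mean of 978 (97.7 per kb), LRP8 one of 1638 (83.3 per kb) and LRP11 one of 411 (68.1 per kb). LRP1 had a mean of 386, which its long transcript reduced to 18.5 per kb. LRP4 was lower still, with a mean of 66.8 (7.63 per kb). LRP3 had a mean of 3.38 (0.633 per kb) and VLDLR one of 5.65 (0.342 per kb), both under the minimum of 10 used here for a detected gene. Thus 6 of 8 members reached that minimum, against 57.6% of the 24057 genes placed.

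Per kb of the union of all exons, LRP10 lay above 60.3% of the 13845 detected genes, whose median was 148 per kb. By this length the other detected members lay below that median. LRP12 exceeded 41.8% of detected genes, LRP8 38.9%, LRP11 35.3%, LRP1 20.0% and LRP4 11.9%. The order of the 8 was the same when the longest coding transcript was used as the length. By that length LRP12 (223 per kb) and LRP8 (213 per kb) lay close to LRP10 (239 per kb). Shares of detected genes were not computed with it, so the low places of LRP12 and LRP8 depend on the length used. The spread between libraries is not known for these means, so it cannot be said which neighbors in the order differ. The depth of the libraries is not known either. LRP1 overlaps STAT6 on the opposite strand (mean of 1818), and the sources used here do not state whether counting used strand. In bulk RNA, fewer cells that express a gene and less RNA per cell cannot be told apart. All 10 K562 marker genes, among them GATA1 and the fetal globins, reached the minimum of 10, with means from 4053 to 171752. Of 15 markers of other cell types, 6 reached it and 1 was listed at 0. The monocyte gene LYZ (1352 per kb) and the T cell gene CD3D (282 per kb) were highest. The other T cell markers listed were far lower, CD3E with 5.13 per kb and CD2 with 2.05. So were the other monocyte markers, ITGAM with 13.5 per kb and CD14 with 1.24. Whether RNA of other cell types adds to the members' levels was not tested.

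**Figure D1:**
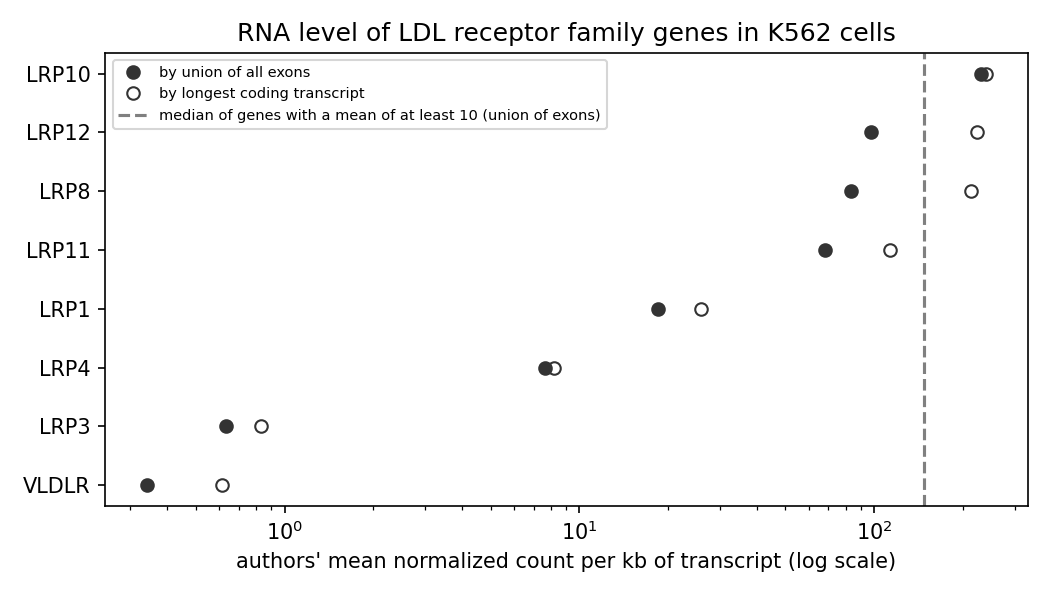
RNA level of the 8 family genes, as the authors' mean normalized count over all RNA-seq libraries per kb of transcript, on a log axis. Filled points use the union of all exons and open points the longest coding transcript. The dashed line is the median of detected genes (148 per kb), and LRP10 (231 per kb) is the filled point to its right.

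In the peak lists, a gene region ran from 2.5 kb upstream of a start to the end of the transcript, over all transcripts of the gene. PHF19 in shCT cells had a peak at 1 of the 8 members, LRP4, against 10.2% of all genes placed. MTF2 had a peak at 4 members in sh#2 cells (LRP1, LRP3, LRP4 and LRP11), against 18.1% of all genes, and at 4 members in shCT cells (LRP1, LRP3, LRP4 and LRP8), against 13.5% of all genes. LRP4 was the member with a peak in all 3 lists, which 6.39% of genes had. VLDLR, LRP10 and LRP12 had none in any of the 3. The members held 2 PHF19 peaks, 11 MTF2 peaks in sh#2 cells and 6 MTF2 peaks in shCT cells. A long gene meets more peaks, so the members with a peak are described by position below. The whole lists held 5621 peaks for PHF19, 18287 for MTF2 in sh#2 cells and 12502 for MTF2 in shCT cells. The PHF19 list was used whole, without the authors' minimum on tags, so it can hold peaks that they did not keep, and the PHF19 shares and ranks given here rest on the whole list. Peak scores were ranked within their own list, where the lowest score was 50 in each, and the scale of the score is not stated in the sources used here. The heading of the PHF19 list also holds a name (sh4) that stands in the heading of the sh#2 MTF2 list, so the control sample of that list is not certain.

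**Figure D2:**
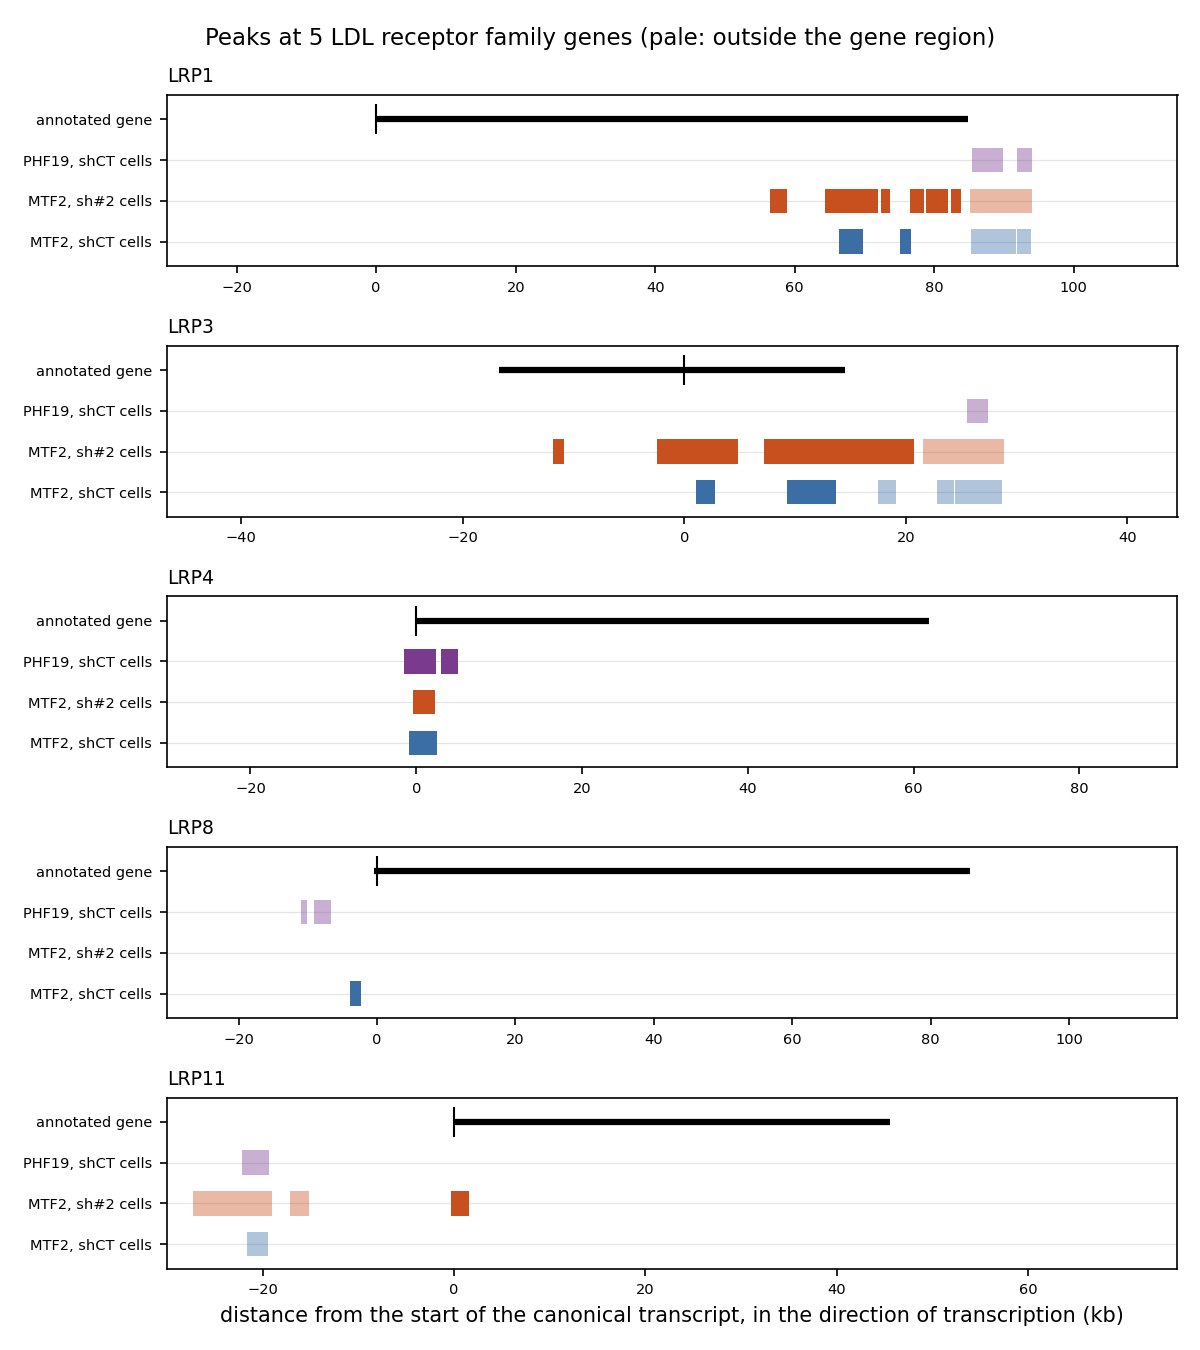
Peaks at LRP1, LRP3, LRP4, LRP8 and LRP11, with the distance in kb from the start of the canonical transcript (vertical tick) on the horizontal axis. Bars are peaks of PHF19 in shCT cells, MTF2 in sh#2 cells and MTF2 in shCT cells, pale where they lie outside the gene region. The start of LRP4 lies under a peak in all 3 rows, while the LRP1 peaks begin 56.5 kb or more from its start.

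LRP1, on chromosome 12 from 57522266 to 57607144 on the plus strand, carried MTF2 in the part of the gene far from the start of its full-length transcript. In sh#2 cells, 6 MTF2 peaks covered 17890 bases of its region, or 20.5%. In shCT cells, 2 MTF2 peaks covered 5066 bases, or 5.80%. The ratio was 3.53, and it was lower in 83.9% of the 3255 genes with an MTF2 peak in shCT cells, for which the median ratio was 1.72. Of the bases under an MTF2 peak in shCT cells, 72.5% were also under a peak in sh#2 cells. Conversely, 20.5% of the bases in sh#2 cells were under a peak in shCT cells. The covered length of the whole MTF2 list was 63.2 Mb in sh#2 cells and 29.0 Mb in shCT cells, a ratio of 2.18.

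The widest of these peaks in sh#2 cells ran from 57586543 to 57594169, across exons 45 to 62 of 89, and had a score of 191.50 (rank 5471 of 18287). In shCT cells the peak in the same place ran from 57588590 to 57592079, across exons 51 to 59, and had a score of 64.15 (rank 9040 of 12502). The remaining 5 in sh#2 cells had scores from 52.95 to 134.11, and the other one in shCT cells, from 57597420 to 57598995, had 59.21. Both peaks of the shCT list therefore lay in its lower part. Of the 6 in sh#2 cells, 2 reached the median score of their list, 111.95. The others, with scores of 52.95, 60.37, 70.47 and 93.15, lay below it. The 6 peaks of sh#2 cells lay between 56.5 and 83.8 kb from the start, and those of shCT cells between 66.3 and 76.7 kb. Short transcripts are annotated as starting inside LRP1, and 3 of the 6 peaks in sh#2 cells covered such an internal start, against none of the 2 in shCT cells. These were the widest peak and weak ones with scores of 60.37 and 70.47 (ranks 15653 and 13647 of 18287). The contrast holds for peaks that cover a start. Within 2.5 kb of any annotated LRP1 start, 4 peaks of sh#2 cells had 7436 bases and both peaks of shCT cells had 2099. Peaks covered more of LRP1 in sh#2 cells and so could meet more starts. The contrast in covered starts was not counted over other genes.

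No PHF19 peak of shCT cells lay in the LRP1 region, and the nearest began 476 bp past the end of the gene. That peak, from 57607620 to 57612162, had a score of 191.66 (rank 446 of 5621) and covers a start of NXPH4, which encodes neurexophilin 4, a secreted neuropeptide-like protein. MTF2 was also strong there. In sh#2 cells a single peak of 8880 bp ran from 57607460 to 57616339, with a score of 1154.26 (rank 345 of 18287). In shCT cells the NXPH4 start lay under a peak from 57607599 to 57613950, with a score of 652.99 (rank 278 of 12502). The strongest signal of this neighborhood in all 3 lists was thus at NXPH4 and not within LRP1. NXPH4 had a mean normalized count of 35.7.

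LRP4, on chromosome 11 from 46878268 to 46940193 on the minus strand, was the member with PHF19 at its start. In shCT cells a PHF19 peak from 46937677 to 46941561 covered the start, with a score of 240.81 (rank 269 of 5621), and a weaker one lay 2.96 to 4.98 kb inside the gene, with a score of 57.26. MTF2 covered the same start in sh#2 cells, from 46937825 to 46940538 with a score of 321.30 (rank 3066 of 18287). In shCT cells it did so from 46937641 to 46941022, with a score of 432.15 (rank 654 of 12502). The MTF2 peak was thus within the strongest 16.8% of its list in sh#2 cells and within the strongest 5.23% in shCT cells.

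Bases of the LRP4 region under MTF2 numbered 2714 in sh#2 cells and 3382 in shCT cells, a ratio of 0.803. A lower ratio was found in 9.09% of the genes with an MTF2 peak in shCT cells. All of the bases in sh#2 cells were also under the peak of shCT cells, and 98.9% of the MTF2 bases of shCT cells at LRP4 were under PHF19 peaks as well. LRP4 and LRP8 were the 2 members with fewer bases under MTF2 in sh#2 than in shCT cells, a direction seen in 1.91% of all genes placed. For LRP1, LRP3 and LRP11, the 3 members with more bases, the direction was that of 17.0% of all genes. Most genes have no MTF2 peak and cannot lose bases, and among the 3255 genes with an MTF2 peak in shCT cells, 14.1% had fewer bases in sh#2 cells and 85.1% had more.

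LRP3, on chromosome 19 from 33668509 to 33699770 on the plus strand, had the largest share of its region under MTF2. In sh#2 cells 3 peaks covered 15581 bases, or 46.1%, and in shCT cells 2 peaks covered 6150 bases, or 18.2%. The ratio was 2.53, which was higher than in 71.7% of the genes with an MTF2 peak in shCT cells. All bases under MTF2 in shCT cells were also under a peak in sh#2 cells. The weakest of the 3 peaks of sh#2 cells lay upstream of the canonical start, from 33673415 to 33674350 (score 53.03, rank 17426). The start of the canonical transcript, at 33685236, lay under a peak of 7276 bp in sh#2 cells (score 424.31, rank 2155), while in shCT cells the nearest peak began 1016 bp past it (score 104.83, rank 4939). Toward the end of the gene, the peak of sh#2 cells was 13534 bp wide (score 864.37, rank 644), of which 7369 bp lay in the LRP3 region, and reached beyond LRP3 over the start of SLC7A10, an amino acid transporter gene listed at 0 in the RNA-seq table. In shCT cells 2 peaks lay within the same stretch, one of 4374 bp in LRP3 (score 400.84, rank 740) and one of 1668 bp past its end (score 126.64, rank 3917). In both lists the highest MTF2 score of this neighborhood lay past the end of LRP3. In sh#2 cells that peak ran from 33706823 to 33714131 (score 967.82, rank 496). In shCT cells it ran from 33709682 to 33713891 (score 571.83, rank 368). SLC7A10 overlaps LRP3 on the opposite strand, so the peak that reaches over both cannot be given to LRP3 alone. The nearest PHF19 peak in shCT cells lay 10998 bp past the end of LRP3.

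LRP11, on chromosome 6 from 150139893 to 150185495 on the minus strand, had an MTF2 peak at its start in sh#2 cells and none in shCT cells. The peak ran from 150183901 to 150185801 and had a score of 74.68 (rank 12979 of 18287). It was therefore a weak peak, and it was not among the strongest 12502 peaks of the sh#2 list, the number that the shCT list holds. Of the 20802 genes with no MTF2 peak in shCT cells, 6.29% had one in sh#2 cells. LRP8, on chromosome 1 from 53708036 to 53794141 on the minus strand, showed the reverse. In sh#2 cells the nearest MTF2 peak was 47.1 kb from its start, whereas in shCT cells one lay upstream, 2.33 kb from the canonical start, with a score of 73.20 (rank 7674 of 12502). The nearest PHF19 peak of shCT cells was 6.64 kb upstream of the same start. The MTF2 peak entered the region by 574 bp, and 6.79% of genes with an MTF2 peak in shCT cells had none in sh#2 cells. The peaks of LRP11 and LRP8 that were seen in 1 of the 2 MTF2 lists both lay in the weaker part of their list, and a call at this level has no replicate here.

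**Figure D3:**
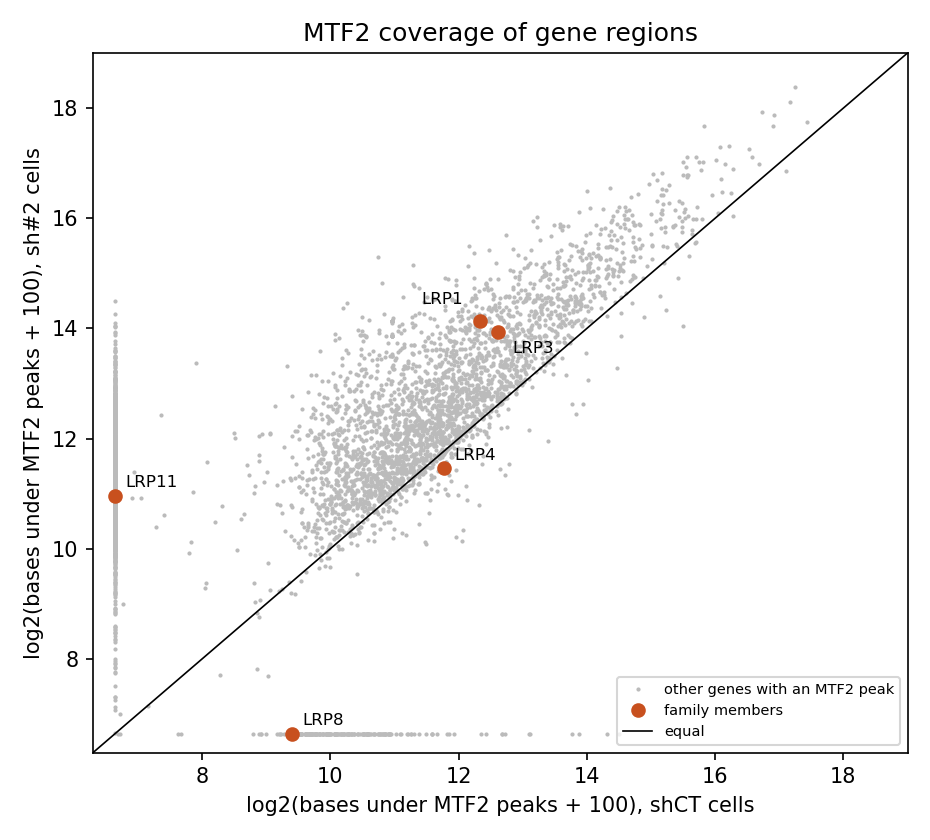
Bases of each gene region under MTF2 peaks, as log2(bases + 100), in sh#2 cells (vertical axis) against shCT cells (horizontal axis). Grey points are other genes with an MTF2 peak, orange points the 5 members with one, and the line marks equal values. LRP1, LRP3 and LRP11 lie above the line, and LRP4 and LRP8 below it.

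The remaining members had no peak in their regions. VLDLR, on chromosome 9 from 2621182 to 2660056, had its nearest PHF19 peak in shCT cells 2115 kb from its start, and its nearest MTF2 peak 1675 kb away in sh#2 cells and 1864 kb away in shCT cells. For LRP10, on chromosome 14 from 23340949 to 23350922, the nearest MTF2 peak was 56.0 kb from the start in sh#2 cells and 56.4 kb in shCT cells, and the nearest PHF19 peak was 239 kb away. For LRP12, on chromosome 8 from 105501459 to 105601486, these distances were 153 kb for MTF2 in sh#2 cells, 306 kb for MTF2 in shCT cells and 119 kb for PHF19, whose peak lay 19.2 kb past the end of the gene. Among the 8 members, those without peaks thus included the 2 highest RNA levels per kb, LRP10 and LRP12, and also the lowest, VLDLR. LRP3, with the largest share under MTF2, was the other member with almost no RNA. These are descriptions over 8 genes, with no test.

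CpG content of the promoters did not sort the 6 members with a promoter entry by the presence of peaks in their regions. RefSeq promoters were found for LRP1, VLDLR, LRP3, LRP8, LRP10 and LRP11. LRP4 and LRP12 had no entry, so the member with PHF19 at its start is missing here. Peaks anywhere in the region were counted, and those of LRP1 lay 56.5 kb or more from its start. VLDLR, with no peak, held 49 CpGs in 300 bases, more than 98.0% of 16964 promoters, whose median was 21. LRP3 held 44 and LRP8 41, above 94.8% and 91.8% of promoters. LRP11 held 26, LRP1 23 and LRP10 16. Within 2.5 kb of the canonical start, LRP3, LRP8 and LRP11 had a peak in at least 1 of the MTF2 lists. Of the 3 without one, LRP1 and LRP10 held fewer CpGs than these members, and VLDLR held more. With 6 genes, no test was made. The triplet GCG, counted on both strands and including CpGs already counted, numbered 43 in LRP3, 42 in VLDLR, 41 in LRP8, 25 in LRP11, 19 in LRP1 and 6 in LRP10, against a median of 15. The GC box GGGCGG, on either strand, was found in all 6, with 7 copies in LRP3, 5 in LRP8 and 1 in LRP1, and in 55.2% of all promoters. The GATA motif AGATAA, on either strand, was found in none of the 6 and in 8.26% of all promoters. Over all genes with a promoter, those with a PHF19 peak within 2.5 kb of the canonical start had a median of 27 CpGs, against 21 for those without. The corresponding medians for MTF2 were 23 and 21 in sh#2 cells, and 24 and 21 in shCT cells.

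**Figure D4:**
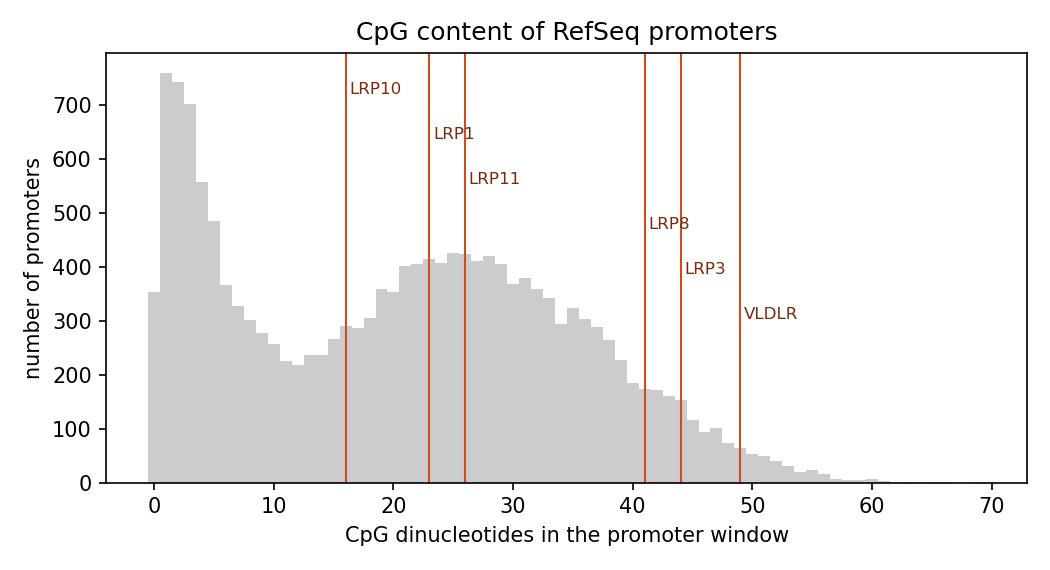
Number of CpG dinucleotides in RefSeq promoter windows of 300 bases (horizontal axis) against the number of promoters with that count (bars). Lines mark the 6 members with a promoter entry, from LRP10 (16) to VLDLR (49).

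The peaks themselves differed in CpG content, taken here as a ratio over the whole peak and not as a count. The observed-to-expected CpG ratio, which corrects the CpG count for the content of C and G, was 0.876 in the LRP11 peak of sh#2 cells, higher than in 99.1% of that list. In the LRP4 peaks at the start it was 0.644 for PHF19, 0.719 for MTF2 in sh#2 cells and 0.661 for MTF2 in shCT cells, higher than in 82.9%, 95.7% and 90.7% of their lists. The 6 LRP1 peaks of sh#2 cells had ratios from 0.274 to 0.390, around the median of 0.315 of that list, and both LRP1 peaks of shCT cells, with 0.354 and 0.293, lay around its median of 0.336. The LRP8 peak of shCT cells had the lowest ratio at a member, 0.155, above 2.80% of its list. The LRP3 peak over the canonical start in sh#2 cells had a ratio of 0.434, above 79.2% of its list, whereas the peak beside that start in shCT cells had 0.219, above 12.1% of its list. The second PHF19 peak of LRP4, inside the gene, had 0.193, above 16.9% of its list.

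Other genes of the pathway were examined in the same way, and their counts stand beside the shares of all genes placed, 10.2% for PHF19 in shCT cells, 18.1% for MTF2 in sh#2 cells and 13.5% for MTF2 in shCT cells. The lists are short, and nothing particular to them is read from these counts. Of 11 further receptors of the family, 2 had a PHF19 peak in shCT cells, 5 an MTF2 peak in sh#2 cells and 3 an MTF2 peak in shCT cells. LRP2 (megalin), the endocytic receptor of the kidney tubule, was the one with a peak in all 3 lists, and it had 0.499 normalized counts per kb. Its bases under MTF2 numbered 6531 in sh#2 cells and 4678 in shCT cells. LDLRAD4, an inhibitor of TGF-beta signaling, had 110098 bases under MTF2 in sh#2 cells and 48459 in shCT cells, with a level of 0.0441 per kb. LRP5 and LRP6, the Wnt coreceptors, had 281 and 157 per kb, and LRP5 had an MTF2 peak of 1308 bases in sh#2 cells and none in shCT cells.

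Among 12 chaperones, adaptors and turnover factors of the receptors, none had a PHF19 peak, 2 had an MTF2 peak in sh#2 cells (LRPAP1, the receptor-associated chaperone, and DAB2, an endocytic adaptor) and 1 in shCT cells (DAB1, the adaptor of the reelin pathway). In this group 11 of 12 reached the minimum count of 10, the exception being DAB1. FURIN, a processing protease of LRP1, was highest with 1356 per kb, followed by MYLIP, a ubiquitin ligase of receptors of the family (933 per kb). Of 16 ligands and coreceptors, 2 had a PHF19 peak (RELN and PLAU), 2 an MTF2 peak in sh#2 cells (PLAU and PDGFRB) and none in shCT cells. RELN, which encodes reelin, had 158 normalized counts per kb, while its receptor LRP8 had 83.3 and its receptor VLDLR 0.342. The highest levels per kb of this group were those of the chaperone CALR (13476), the saposin precursor PSAP (11692) and APOE (2061), a lipoprotein component.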

How the data were processed

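K562 cells were measured by RNA-seq (6 libraries: 2 each for sh#1, sh#2 and shCT) and ChIP-seq (6 libraries, 1 per condition), grouped by their labels. RNA-seq reads were aligned to hg19 by the authors using TopHat, and the authors ran DESeq2 with RefSeq exons. The mean normalized count deposited by the authors, over all libraries, is treated as a score. A further 5 columns hold the authors' comparison (log2 fold change, its standard error, statistic, p-value and adjusted p) and were not used, so no value per library, depth or error is known. ChIP-seq reads had been mapped with Bowtie to a joint genome of hg19 and dm3, the fly spike-in, before peak calling by MACS. Each deposited list holds positions and a score per peak, without tag counts, so neither the authors' tag minimum for PHF19 nor the spike-in could be applied. Tools and builds are named in the study's methods or the submitters' processing notes, their versions not being given there. PHF19 in sh#1 and sh#2 cells and IgG were not analysed here.

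Genes were placed on GRCh37, the assembly of hg19, with GENCODE 44, which placed 24057 of 27348 symbols, 1007 of them by a RefSeq synonym. Peaks were assigned by an overlap of at least 1 bp, and coordinates are 1-based. Promoters came from RefSeq (GRCh38.p14) and were matched by sequence to GRCh37. The overlap steps were tested on simulated peaks. The software was Python 3.11.15, with numpy 2.4.6 for arrays, pandas 2.3.3 for tables and matplotlib 3.10.9 for plots. Named genes were all members with every peak at them and, from the other lists, genes with a peak in all 3 lists or among the 3 highest levels, and the 3 genes most like LRP1. Some genes of these lists are counted but not reported here by name. NXPH4, STAT6, SLC7A10, CD3E, CD2, ITGAM, CD14 and the further list genes with a peak were named after their values were seen. Members and lists were chosen with earlier results of these data known. Alternatives were other scores, overlaps, regions, transcript lengths, count minimums and equal numbers of MTF2 peaks.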

Additional observations from a re-analysis of the deposited data

How the results depend on the processing

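The 4 counts of members with peaks or with more MTF2 bases were recomputed with a higher score, an overlap of 500 bp, other regions and other transcripts. Apart from windows at transcript starts, the share of all genes was not computed under the alternatives given here. Nothing particular to the members is therefore read from these counts. The number with a PHF19 peak in shCT cells was 2 when regions reached 10 kb upstream, which added LRP8, and 1 under the other alternatives. With peaks at or above the median score of their list, 3 members had an MTF2 peak in sh#2 cells and 2 in shCT cells, LRP1 having 10840 bases in sh#2 cells and 0 in shCT cells. With equal numbers of MTF2 peaks in both lists, 2 members had more bases in sh#2 cells, LRP1 with 12771 against 5066 and LRP3 with 14645 against 6150, and LRP11 dropped out because its peak was below the score of 78.13 that this number left. Within 2.5 kb of any start, 1 member had a PHF19 peak in shCT cells, against 7.86% of all genes. By that rule 4 members had an MTF2 peak in sh#2 cells (15.6% of all genes) and 4 in shCT cells (11.1%). Within 2.5 kb of the canonical start, an alternative chosen after seeing the data, these numbers were 1 (6.4%), 3 (13.2%) and 3 (8.95%). LRP1 had no peak of any list within that distance of its canonical start. Using the longest coding transcript as length, levels per kb were 239 for LRP10, 223 for LRP12, 213 for LRP8, 113 for LRP11, 25.8 for LRP1, 8.19 for LRP4, 0.834 for LRP3 and 0.613 for VLDLR. A minimum count of 100 left 5 members.

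No paired analysis was possible because the table gives 1 mean over all RNA-seq libraries and each ChIP-seq condition has 1 library. For the same reasons no fit leaves out a replicate. Depth, tag counts and replicates behind each peak are not known here.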

Other observations

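The 3 genes whose bases under peaks were most like those of LRP1, by Euclidean distance on log2(bases + 100) over the 3 peak lists among 24056 other genes, were VWA3A (distance 0.0554), SLC6A7 (0.115) and TMEM132E (0.121). VWA3A had 18577 bases under MTF2 in sh#2 cells and 5023 in shCT cells, SLC6A7 had 18934 in sh#2 cells and 4785 in shCT cells, and TMEM132E had 17780 in sh#2 cells and 5515 in shCT cells, and none of the 3 had a PHF19 peak. Their mean normalized counts were 0.204 for VWA3A and 0.376 for TMEM132E, and SLC6A7 was listed at 0, while LRP1 had 386. The likeness covers the peak lists alone.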
